A study of Mus musculus with 2 samples.

Results

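Malat1 and Neat1 are long noncoding RNAs that stay in the nucleus, and droplets in which they make up much of the RNA can hold a nucleus with little cytoplasm. The 100 barcodes described here were selected on the share of Malat1 and Neat1 among their non-mitochondrial transcripts, in the single-cell RNA library of undamaged mouse liver. Barcodes with at most 30% mitochondrially encoded (mt) UMIs were ranked by that share, and the 100 highest were taken out of 55332 ranked barcodes and 59202 barcodes in all. A unique molecular identifier (UMI) marks 1 captured transcript molecule, so that copies made during amplification are counted once.

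The study isolated hepatocytes, the parenchymal cells that carry out most liver metabolism, from C57BL/6 mice by a collagenase perfusion in 2 steps and sequenced them on the 10X Genomics droplet platform with version 2 chemistry. The undamaged group (0 h) was 1 library from 1 healthy mouse, and the second group (PHx48h) was 1 library from 1 mouse taken 48 h after partial hepatectomy (PHx), surgery that takes out most of the organ. The mice were male, were on normal diet, and were 10 to 12 weeks old at surgery according to the labels, while the study's methods give a slightly younger age. The labels name no deleted gene and no transgene. The undamaged library held 9.61e+07 UMIs, with 1183 to 24594 per barcode and a median of 1436, and the PHx48h library held 1.82e+07 UMIs in 1586 barcodes. With 1 library in each group no test between mice was possible and no p-value is given. All intervals are exact and at the 95% level, and they cover counting error only, since barcodes of 1 library are not replicates of a condition. The 2 libraries shared 148 barcode sequences, and none of the 100 members was among them.

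Malat1 is a component of nuclear speckles, bodies rich in splicing factors, and Neat1 is the scaffold of paraspeckles, in which other RNAs can be held back. Export through nuclear pores is slow for some mRNAs, so that spliced molecules collect in the nucleus, and in mouse liver this has been described for Mlxipl, Nlrp6 and Gcgr, among others. Other mRNAs, such as those for albumin and other secreted plasma proteins, are made in large amounts and are mostly found on the rough endoplasmic reticulum of the cytoplasm. Transcripts of the 13 mt genes are made and kept inside mitochondria, and their share is a usual measure of how a droplet's contents are made up.

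The chemistry primes on runs of A, which most mRNAs carry at their 3' end as an added tail, whereas the mature end of Malat1 is a triple helix without an added tail. The longest A run of its annotated transcript is shown because it is of the kind that the capture step can prime on. It has 12 bases and ends 298 bases before the annotated end of the 6983-base transcript. Malat1 (ENSMUSG00000092341) is a long noncoding RNA gene on the minus strand at chr19:5795690-5802672 of GRCm38, and the 72 bases below lie at chr19:5795958-5796029, written 5' to 3' along the transcript, with the run in capitals and the sequence taken from GENCODE release M21.
Malat1: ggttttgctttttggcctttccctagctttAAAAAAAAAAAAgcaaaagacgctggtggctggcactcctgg
Neat1 (ENSMUSG00000092274), also on the minus strand at chr19:5824708-5845478, had no run of 10 or more A in its longest annotated transcript. Whether the Malat1 run primed any of the counted molecules was not tested, nor was its position relative to the mature end of that RNA.

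Selection set the Malat1 and Neat1 values, which are given as a description. Malat1 plus Neat1 made up 8.12% to 37.8% of the non-mt UMIs of the members, with a median of 11.0%. The 3 lowest members had 8.13%, 8.12% and 8.12%, and the next 3 barcodes in rank had 8.11%, 8.11% and 8.06%, so the set had no gap at its lower edge. Across all 55332 ranked barcodes the median share was 0.148%, and 65 of them reached 10%. Malat1 gave 102 to 1404 UMIs per member with a median of 255, whereas Neat1 gave 0 to 34 with a median of 6 and was not seen in 20 members. Malat1 thus carried nearly all of the share, and Neat1 varied from absent to abundant within the set.

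The reference sets were the 52498 other barcodes under 2% mt and the 3870 barcodes over 30% mt. The members' own mt share was 0.124% to 17.5% with a median of 0.740%, and 89 of the 100 were under 2%. The barcodes under 2% mt had a median of 0.529% and those over 30% a median of 48.2%. Members were deeper than the low-mt barcodes, with 1265 to 4501 UMIs and a median of 2299.5 against a median of 1421, while the high-mt barcodes had a median of 2371.5. Without mt genes, Malat1 and Neat1 the medians were 1984.5 UMIs in the members, 1411 in the low-mt and 1207 in the high-mt barcodes. After every barcode was thinned to 900 UMIs without mt genes, Malat1 and Neat1, the members held 477 to 638 genes with a median of 536.5. The medians were 460 genes in the low-mt and 420 in the high-mt barcodes at this depth, which all members, all 52498 low-mt and 2730 high-mt barcodes reached. The members' lower quartile of 518 genes lay above the upper quartiles of 469 and 453 genes of both references.

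**Figure D1:**
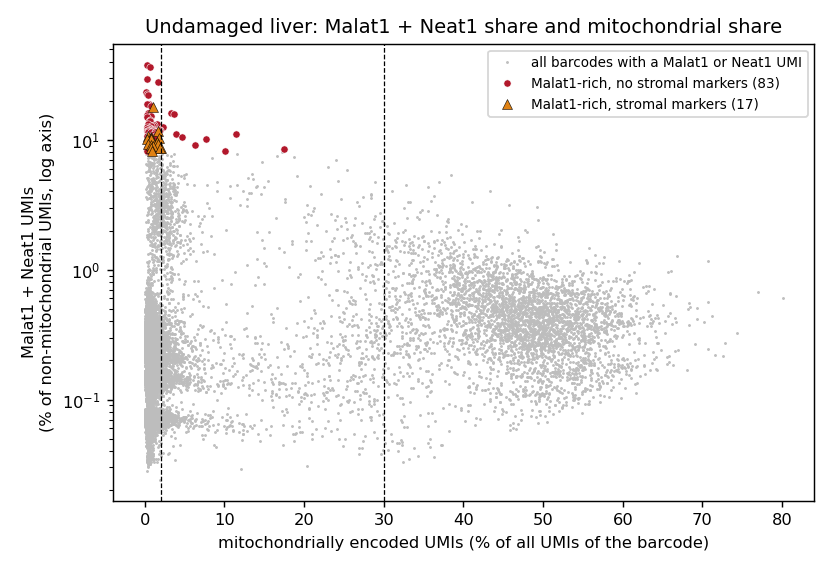
Malat1 plus Neat1 UMIs as a percentage of non-mitochondrial UMIs (log axis) against the mitochondrial percentage of all UMIs, 1 point per barcode with at least 1 Malat1 or Neat1 UMI in the undamaged library. Dashed lines mark 2% and 30%. The 100 members lie at the top, with shares from 8.12% to 37.8%, and 89 of them are left of the 2% line.

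The label of nuclear barcodes was checked against hepatocyte and mitochondrial transcripts. Alb (albumin) was present in all 100 members with 26 to 191 UMIs and a median of 70, and Apoa1, Ttr, Fgb and Cyp3a11 were also counted in every member. Their median mt share was no lower than that of the low-mt barcodes. Because these transcripts were counted in every member, the members are called Malat1-rich barcodes here rather than nuclei. Droplets can also take up RNA that floats free in the suspension, and its part in the Alb counts was not tested. The low-mt barcodes were close to each other in depth, with quartiles of 1337 and 1525 UMIs, and whether they were cells or droplets with free RNA was not tested, so that each ratio to them compares sets of barcodes and not nuclei with cells.

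Markers of other liver cells were counted next, because hepatocyte preparations can hold them. A barcode was taken to hold a class when it had at least 3 UMIs from at least 2 of its markers. By this measure 22 of the 100 members held some class other than hepatocytes (exact binomial interval 14.3% to 31.4%), compared with 0.800% of the low-mt and 0.930% of the high-mt barcodes. Markers of stromal cells, such as the vitamin A storing stellate cells of the sinusoid, were held by 17 members, endothelial and macrophage markers by 4 each, MHC class II markers by 2 and erythroid markers by 1. T or NK, B or plasma, neutrophil and cholangiocyte markers were held by 0 of 100 members, which allows a share of up to 3% (3 counts of 100), or 3.62% by the exact interval. This holds for the rule of 2 markers only. Of the 11 T or NK markers 9 were among the counted genes, and Ccl5 alone had UMIs, 21 in 2 members. A T or NK cell seen by Ccl5 alone would thus not be counted. At an equal 1000 non-mt UMIs per barcode the stromal share was 11.0% in the members and 0.141% and 0.121% in the low-mt and high-mt barcodes. Of the 12 stromal markers 10 had a UMI in the members, led by Dcn, a matrix proteoglycan, with 95 and Ecm1, a secreted matrix protein, with 79, whereas the fibroblast collagen Col1a1 and the smooth muscle actin Acta2 were at 0.

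The 17 members with stromal markers differed from the 78 without markers of another class in more than those markers. Their Neat1 count was 0 or 1, with 14 of the 17 at 0, while in the 78 it was 0 to 34 with a median of 7 and only 4 were at 0. Mlxipl gave 1 UMI in the 17 and 175 UMIs in the 78, where 56 barcodes had it. Luc7l2 gave 4 and 192 UMIs. Either Mlxipl or Luc7l2 was seen in 4 of the 17 and in 72 of the 78. Alb, by contrast, overlapped between both, with 50 to 118 UMIs in the 17 and 26 to 191 in the 78. Neat1, Mlxipl and Luc7l2 were thus at or near 0 in most of the 17, while their ranges reached 0 in the 78 as well, and values for the 78 are given beside several of the results below.

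**Figure D2:**
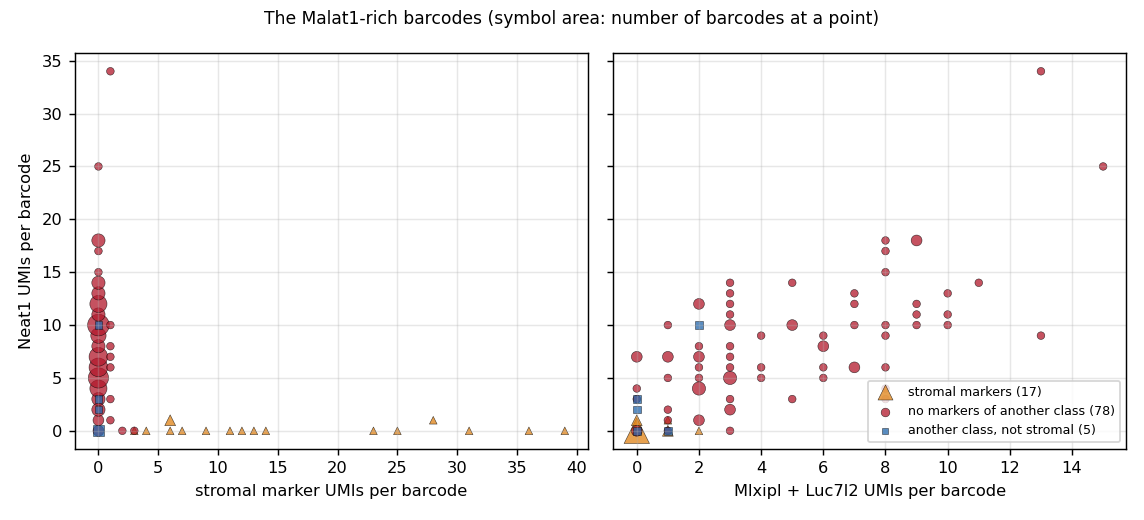
Neat1 UMIs per barcode against UMIs of the 12 stromal markers (left) and against Mlxipl plus Luc7l2 UMIs (right) for the 100 Malat1-rich barcodes. Symbol area grows with the number of barcodes at a point, and colors give the marker class. Barcodes with many stromal UMIs lie at 0 or 1 Neat1 UMI, and those with Mlxipl or Luc7l2 UMIs lie mostly higher.

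To ask which hepatocyte mRNAs stayed with the nuclear RNAs, levels were compared as CPM, the UMIs of a gene per 1000000 UMIs of the same barcodes, after the 13 mt genes, Malat1 and Neat1 were left out of the total. Genes whose mean over both sets was at least 50 CPM were read, and a gene was called when its level, with 10 CPM added to both sides, differed by 2-fold or more. Against the low-mt barcodes 2325 genes were read, of which 351 (15.1%) were higher and 5 (0.215%) lower in the members, and the median log2 ratio was 0.06. Among the 78 members without other classes 421 were higher and 16 lower. The middle of the genes read had log2 ratios of -0.24 to 0.57 (quartiles). A gene that is high in the members alone can pass the 50 CPM mean through them, and being read then largely fixes its call. Genes given below that were under 50 CPM in the low-mt barcodes passed the mean through the members. Among them are Luc7l2, Pnisr, Pabpn1, Onecut1, Kcnq1ot1, Gm26917, Gm12909, PISD, Prpf4b, Mlxipl and Nlrp6. For lists with few genes read a summed level is therefore given too.

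Among noncoding RNAs, Kcnq1ot1, the imprinted RNA that silences its neighborhood in cis and is transcribed antisense to Kcnq1, was at 271 CPM (205 to 351) in the members, 4.02 CPM in the low-mt and 44.7 CPM in the high-mt barcodes. The members' level was 67.5-fold that of the low-mt barcodes (49.96 to 89.7), and 40 of the 100 had it. Reads of Kcnq1 itself cannot be told apart from it unless strand was used in counting, which is not stated. Gm26917, annotated as a lincRNA at chr17:39843013-39846341 beside Gm42418, was at 347 CPM in the members against 9.24 and 225 CPM. It stood above the low-mt barcodes by 37.6-fold and above the high-mt barcodes by 1.54-fold. Gm12909, annotated as an antisense RNA, had 224, 1.62 and 23.9 CPM in the same order. The members were highest for each of the 3 RNAs, and the high-mt barcodes came next. Of the 3 nuclear noncoding RNAs of the list that were read, 2 were higher than in the low-mt barcodes, and the third, Gm42418, was within 2-fold at 599 against 326 CPM, whereas in the 78 members all 3 were past 2-fold. Summed over all 12 RNAs of the list in the files, the level was 1337 CPM (1185 to 1502) in the members and 355 CPM in the low-mt barcodes. Gm26917 and Gm42418, at 347 and 599 CPM, made up most of the members' sum, and the origin of their counts was not tested.

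Of the mRNAs described as held in liver nuclei, 3 were read and all 3 were higher than in the low-mt barcodes. Mlxipl and Nlrp6 passed the minimum mean level through the members, while Gcgr did not need them. The count of 3 of 3 can thus be partly set by the filter. Summed over the 3 genes read, the level was 1365 CPM in the members and 194 CPM in the low-mt barcodes, a ratio of 7.04 (6.25 to 7.92). Mlxipl (ENSMUSG00000005373, chr5:135089890-135138382), which encodes the carbohydrate response factor ChREBP, had 177 UMIs in 58 members, with 0 to 9 per barcode. Its level was 842 CPM (722 to 975) in the members, 49.4 CPM in the low-mt and 351 CPM in the high-mt barcodes. That made it 17.0-fold (14.6 to 19.8) above the first reference and 2.40-fold (2.04 to 2.80) above the second, and among the 78 members its level was 1024 CPM. Nlrp6, an innate immune sensor, was at 247 CPM in the members, 31.6 CPM in the low-mt and 234 CPM in the high-mt barcodes, so the 7.83-fold difference (5.83 to 10.3) from the low-mt barcodes had no counterpart against the high-mt barcodes, where the ratio was 1.06 (0.785 to 1.39). Gcgr, the glucagon receptor, was at 276, 113 and 415 CPM, between both references.

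Splicing factors and their kinases help to remove introns, and many sit in speckles. Against the low-mt barcodes 25 of the 27 genes read were higher and none was lower, with a median log2 ratio of 2.47 beside 0.06 for all genes read. Luc7l2 (ENSMUSG00000029823, chr6:38551334-38609470), a U1-associated protein, had 198 UMIs in 72 members and 942 CPM (815 to 1082), compared with 34.8 and 292 CPM in the low-mt and high-mt barcodes. Its ratio to the low-mt barcodes was 27.1 (23.3 to 31.3). Pnisr, a serine and arginine rich speckle protein, was at 257, 10.5 and 69.6 CPM. The 2 genes of the list that were not called were Hnrnpa2b1 and Hnrnpu, both of which encode abundant RNA-binding proteins, with log2 ratios of 0.53 and 0.59. Summed over the 27 genes read, the level was 8428 CPM in the members and 1440 CPM in the low-mt barcodes. Luc7l2 and Pnisr passed the 50 CPM mean through the members, so the count of 25 of 27 can be partly set by the filter. With no minimum level the list median was 2.08, beside -0.0018 for all genes.

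Other genes outside that list stood near the top of all genes read. Pabpn1, the nuclear poly(A) binding protein, was at 200 CPM in the members against 2.07 and 46.0 CPM. Prpf4b, a kinase of the spliceosome, was at 390 CPM against 23.9 and 19.2 CPM, and it was the splicing-related gene among the 12 highest against the high-mt barcodes. PISD, a name that the files write in capitals for a gene on an unplaced scaffold and that in other annotations encodes a phosphatidylserine decarboxylase, was at 713 CPM against 20.04 and 291 CPM. After thinning to 900 UMIs it was detected in 46.0% of members, 1.70% of low-mt and 23.5% of high-mt barcodes.

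Hepatocyte transcription factors were split. Of 21 read, 7 were higher than in the low-mt barcodes, and the median log2 ratio was 0.72. Onecut1 (HNF6), a factor of liver and bile duct development, was at 290 CPM (222 to 373) in the members and 11.4 CPM in the low-mt barcodes, and it was seen in 46 members. Onecut2, its paralog, was at 504 against 63.8 CPM. The central factors of hepatocyte identity were closer to the reference. Hnf4a was at 124 CPM (80.8 to 181) against 75.6 CPM, and Cebpa at 114 CPM (73.1 to 170) against 82.0 CPM, neither of them past 2-fold. Ppara, the receptor for fatty acids, rested on 8 UMIs in 7 members. At the low end of the list were Nr2f6 and Atf5, with log2 ratios of 0.09 and -0.47.

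Among other regulators, 5 of the 24 nuclear receptor cofactors and chromatin regulators were read, and 3 were higher, including Arid1a, a subunit of the SWI/SNF remodeler, with 95.1 against 23.8 CPM, and Ash1l, a histone methyltransferase, with 90.4 against 24.2 CPM. Smarca2 and Chd4, both ATPases of remodelers, had log2 ratios of 0.73 and 0.57. Arid1a and Ash1l passed the 50 CPM mean through the members, and over all 24 genes the summed level was 1241 CPM (1095 to 1402) in the members and 452 CPM in the low-mt barcodes. Of the immediate early and stress genes, 11 of 36 were read and 8 were higher, while all 36 summed to 2088 CPM (1897 to 2293) against 584 CPM. Jun and Junb, subunits of the AP-1 factor, had 32 UMIs each and stood at 152 CPM in the members against 8.98 and 11.3 CPM, and they too passed through the members, with Jun in 16 and Junb in 19 of the 100. Btg1 and Klf9 had log2 ratios of 0.56 and 0.76. Clock genes were counted thinly, with 3 of 19 read and 2 higher (3 of 4 in the 78 members). Among them were the output factor Tef with 20 UMIs and the repressor Nr1d1 with 19. The 3 genes read summed to 257 CPM in the members and 76.8 CPM in the low-mt barcodes. Tef and Nr1d1 too passed the 50 CPM mean through the members, so their calls were largely set by the filter. None of the 25 proliferation genes reached the level at which genes were read.

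Abundant mRNAs of the cytoplasm showed the opposite side of the same totals. None of the 49 secreted plasma protein genes read was past 2-fold in either direction, and 5 of the 49 were above the low-mt level at all. Their median log2 ratio was -0.25, and their summed level was 266957 CPM in the members and 332697 CPM in the low-mt barcodes, a ratio of 0.802 (0.796 to 0.809). Alb was at 35634 CPM (34832 to 36450) against 47984 CPM, Ttr (transthyretin) at 7139 against 8047 CPM and Apoa1 (the main protein of high-density lipoprotein) at 7382 against 8434 CPM. Gc, the vitamin D binding protein, was lowest in the list at a log2 ratio of -0.52, and Itih3, an inhibitor heavy chain, was highest at 0.60.

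Enzymes and ribosomal proteins lay in the same narrow band. Endoplasmic reticulum enzymes of drug and lipid metabolism had a median log2 ratio of -0.26 with 2 of 39 higher, mitochondrial enzymes encoded in the nucleus -0.14 with 0 of 37, nuclear-encoded respiratory chain subunits -0.28 with 0 of 54, and cytosolic ribosomal protein genes -0.21 with 0 of 79. No gene of these 4 lists was past 2-fold lower, and in the 78 members 1 respiratory chain gene was. The summed ratios of the 4 lists were 0.822, 0.865, 0.808 and 0.843. Cyp3a11, a major drug oxidizing enzyme, was at 10840 CPM against 14705 CPM and Cyp2e1 at 4547 against 5792 CPM, while Cps1, the entry enzyme of the urea cycle, was at 3577 against 4344 CPM. Within the ribosomal list, Rpl7 and Rps27 had log2 ratios of 0.19 and 0.07, and Rplp1 and Rpl15 -0.61 and -0.72.

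Some metabolic mRNAs left this band. Cyp7a1, the rate-limiting enzyme of bile acid synthesis, was at 214 CPM (156 to 286) in the members against 91.8 CPM in the low-mt and 83.4 CPM in the high-mt barcodes. Ces3b, a carboxylesterase, was at 1165 against 474 and 1254 CPM, and Ftcd, a histidine breakdown enzyme of the periportal list, at 723 against 228 and 605 CPM. Acaca, which makes malonyl-CoA for fatty acid synthesis, and Upb1, of pyrimidine breakdown, had log2 ratios of 1.23 and 1.18 to the low-mt barcodes. Of these 5 genes, Cyp7a1 and Upb1 were past 2-fold against both references, while Ces3b, Ftcd and Acaca were within 2-fold of the high-mt level.

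Zonation along the liver lobule was not a strong axis in this comparison. Perivenous genes had a median log2 ratio of -0.30, with 1 of 14 higher, and periportal genes 0.03, with 2 of 17 higher. The share was 15.1% of all genes read, and few genes of each list were read. The periportal sign turned to -0.03 when ratios were centred on the median gene and to -0.14 with all non-mt UMIs as the total. Glul (glutamine synthetase), which marks the cells around the central vein, was at 233 CPM (172 to 308) against 273 CPM and was found in 28 members, with up to 9 UMIs in a single barcode. Cyp2f2, which marks the periportal side, was at 1593 against 2168 CPM. Of the membrane receptors and transporters 4 of 31 were higher, near the 15.1% of all genes read, with a median of 0.24, and in the 78 members 7 of 31 were. Lifr, a receptor for cytokines of the IL-6 family, and the zinc transporter Slc39a14 were at 1251 and 214 CPM against 524 and 75.3 CPM, while Abcc3 and the bile acid importer Slc10a1 had log2 ratios of -0.36 and -0.48.

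The 5 genes past 2-fold lower all rested on few UMIs in the members. They were Suox with 10 UMIs, Uqcc2 with 7, Slc35a3 with 7, Rmdn3 with 9 and Hibadh with 21. Suox, sulfite oxidase of mitochondria, was at 47.6 CPM (22.8 to 87.5) against 114 CPM, a ratio of 0.417 with an interval of 0.200 to 0.767. The other 7 of the 12 lowest genes, Eef1g, Uba1, Rab2a, Bzw1, Atp5c1, Txn2 and Tm9sf2, had log2 ratios of -0.99 to -0.91. The most abundant of the 12 in the low-mt barcodes was Atp5c1, a subunit of ATP synthase, at 336 CPM.

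**Figure D3:**
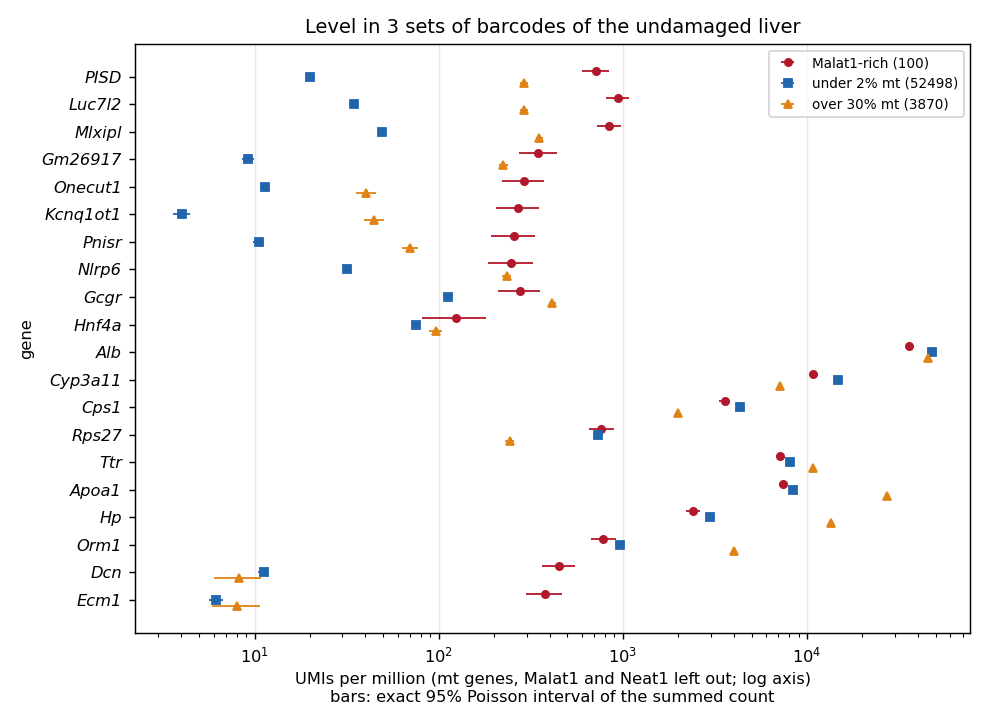
Levels of named genes in the 100 Malat1-rich barcodes, the 52498 barcodes under 2% mt and the 3870 barcodes over 30% mt, in CPM on a log axis, with exact 95% Poisson intervals of the summed counts. PISD, Luc7l2 and Mlxipl run from 20.04, 34.8 and 49.4 CPM in low-mt barcodes to 713, 942 and 842 CPM in members, while Alb, Cyp3a11 and Ttr differ little between those sets. Hp and Apoa1 are highest in the high-mt barcodes.

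Several of the highest genes came mostly from the stromal members, which gave 89 of the 95 Dcn UMIs and 77 of the 79 Ecm1 UMIs. Dcn was at 452 CPM in all members and 35.1 CPM in the 78, Ecm1 at 376 and 11.7 CPM, and Ntm, a neural cell adhesion molecule, at 152 and 5.85 CPM. In the 17 members with stromal markers the levels of these 3 genes were 2943, 2546 and 1025 CPM. Dcn and Ecm1 are markers by which the 17 were recognized, but Ntm is not. Luc7l2 stood the other way, at 132 CPM in the 17 and 1124 CPM in the 78, and Mlxipl at 33.1 and 1024 CPM. Summed over all 34 genes of the splicing list the 17 were at 4695 CPM and the 78 at 9518 CPM, with 1524 CPM in the low-mt barcodes, so both kinds of member were above the reference.

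Against the high-mt barcodes 2302 genes were read, of which 547 (23.8%) were higher and 119 (5.17%) lower in the members. Here the median log2 ratio of all genes read was 0.48, so values are to be read relative to it. Centred on that median, 175 genes were higher and 283 lower. The split also moved with the total, to 338 higher and 160 lower over all non-mt UMIs, and to 936 and 21 over all UMIs. Both comparisons share the same members, and their values are given side by side.

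Secreted plasma proteins held the lower end. Of 50 read, 19 were lower and none was higher, with a median log2 ratio of -0.76, which was -1.24 relative to the median gene and -0.10 when all UMIs made up the total. Hp, haptoglobin, was at 2411 CPM (2206 to 2631) in the members and 13457 CPM in the high-mt barcodes, 5.58-fold lower, while the low-mt barcodes were at 2968 CPM. Orm1, an acute phase glycoprotein, was at 785 against 3994 CPM and Serpinf1 at 147 against 869 CPM. Apoa1 was 3.69-fold lower than its 27263 CPM in high-mt barcodes, and Apom and Ambp were 3.80-fold and 3.87-fold lower. For these genes the members and the low-mt barcodes lay close together, and the high-mt barcodes stood apart. Alb did not follow them, with 35634 CPM against 45232 CPM. Lbp and Cfb, with 3 and 7 UMIs in the members, had ratios of 0.161 (0.0332 to 0.474) and 0.189 (0.0759 to 0.392).

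Ribosomal protein genes were at the other end. Of 78 read, 56 were higher and all 78 were above the high-mt level, with a median log2 ratio of 1.23, or 0.74 relative to the median gene. Rps27 was at 766 CPM (652 to 894) in the members, 731 CPM in the low-mt and 243 CPM in the high-mt barcodes, and Rplp1 at 989, 1515 and 467 CPM. Respiratory chain subunits encoded in the nucleus had 13 of 54 higher with a median of 0.70, mitochondrial enzymes 10 of 37 with 0.62, and cytosolic enzymes 9 of 44 with 0.55, all near the 23.8% of all genes read. Perivenous genes (0.48), endoplasmic reticulum enzymes (0.36), membrane receptors and transporters (0.33) and periportal genes (0.25) lay below the median gene, and each of those 4 medians turned negative when ratios were centred on it. Cps1 was at 3577 CPM in the members and 1987 CPM in the high-mt barcodes, and Cyp3a11 at 10840 and 7105 CPM.

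The nuclear lists were closer together in this comparison than in the first. Splicing genes were still higher, 17 of 27 with none lower, and their median of 1.15 was 0.66 above that of all genes read. Hepatocyte transcription factors had a median of 0.56, with 6 of 21 higher and Atf5 lower. Both values were near those of all genes read (0.48 and 23.8%), and centred on the median gene the list median was 0.08. Of the 3 noncoding RNAs read, Kcnq1ot1 was higher and Gm42418 was lower, at 599 against 2407 CPM. Gm42418 is annotated as a lincRNA and overlaps AY036118 and CT010467.1 on the opposite strand, so its value is uncertain. Lars2, a mitochondrial leucyl-tRNA synthetase, was also lower, at 80.9 against 328 CPM. Immediate early and stress genes were higher for 7 of 13, and none of the 4 clock genes read was past 2-fold. The median of the 3 mRNAs described as nuclear was 0.08, since Mlxipl was higher while Nlrp6 was level and Gcgr was at a ratio of 0.666 (0.504 to 0.863).

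Of the 12 genes highest against the high-mt barcodes, Dcn, Ecm1, Colec11 and Reln were in the stromal marker list. These 4 with Ntm, Prelp, Sparc, Col14a1 and Igfbp7, which encode matrix, adhesion or secreted proteins, had log2 ratios of 3.49 to 4.67, and in the 78 members these fell to between 0.27 and 1.31. The other 3 were Prpf4b, Tmsb4x and Ccl5. Tmsb4x, the actin-binding thymosin beta 4 of blood and endothelial cells, had 78 UMIs in 12 members, of which a single barcode gave 66. Ccl5, a chemokine of T and NK cells, had 21 UMIs in 2 members, of which 1 gave 20, and its reference held 0.348 CPM. Among the 78 members these 2 genes had log2 ratios of 3.87 and 3.62, since Ccl5 is 1 of the T or NK markers but none of the others had a UMI in the members, and both values rest mainly on 1 barcode each.

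**Figure D4:**
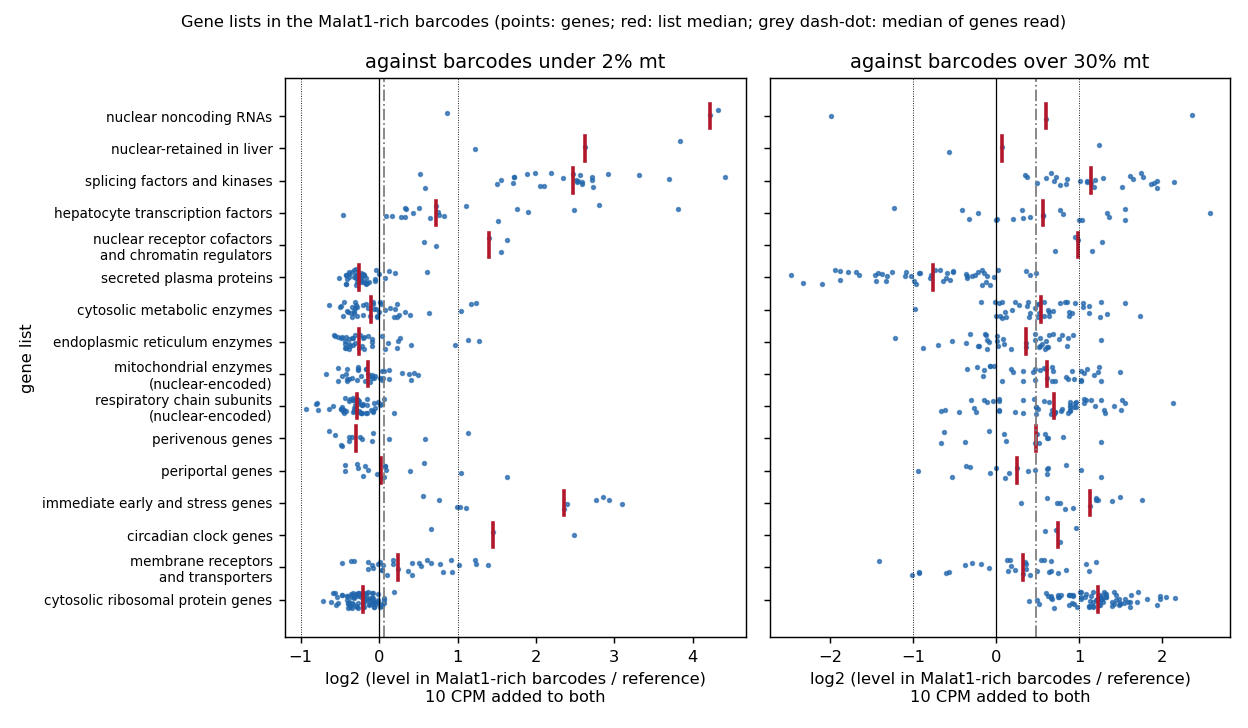
Log2 ratio of each gene (points) in the Malat1-rich barcodes to barcodes under 2% mt (left) and over 30% mt (right), by gene list, with the list median in red. Dotted lines mark 2-fold and the dash-dot line the median of genes read (0.06 and 0.48). Splicing genes lie right of 0 in both panels, the median of secreted plasma proteins lies left of 0 in both, and the ribosomal protein medians lie on opposite sides of 0 in the 2 panels.

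The members were also divided by the rank that chose them, which gives a description only. From ranks 1 to 25 to ranks 76 to 100 the splicing list went from 10852 to 6726 CPM, passing 9535 and 7352 CPM in the 2 bands between, and Mlxipl went from 1330 to 378 CPM. Secreted plasma proteins went the other way, from 249658 to 283088 CPM. Stromal markers went from 137 to 2846 CPM, and the members that held them numbered 1, 1, 7 and 8 in the 4 bands. Median Neat1 was 9, 9, 3 and 2 UMIs. Stromal members thus move with the rank. Among the 78, which numbered 23, 24, 17 and 14 in the 4 bands, the splicing list went from 11154 to 7830 CPM, Mlxipl was at 1407, 1130, 711 and 590 CPM, and secreted plasma proteins went from 248524 to 286810 CPM.

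Below the members the same lists continued to change. In the next 100 barcodes by rank the splicing list was at 6003 CPM, in the 300 after those at 4694, in the 500 after those at 4118 and in the remaining 54332 at 1513 CPM. Mlxipl was at 361, 153, 159 and 49.99 CPM in those bands. Barcodes with markers of another class were 57 of 100, 239 of 300, 358 of 500 and 275 of 54332. Ribosomal protein genes rose above their low-mt level of 44811 CPM in the middle bands, to 74189 CPM in the band of 300, whereas the members were at 37784 CPM. The members thus had fewer barcodes with markers of another class than each of the next 3 bands, and the part of those barcodes in the band levels was not tested.

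**Figure D5:**
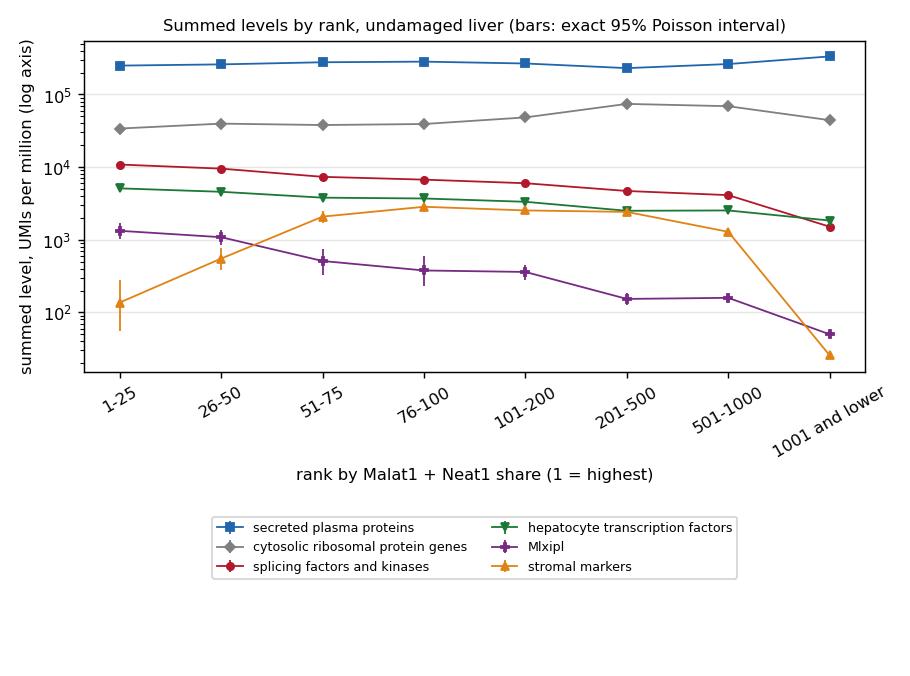
Summed levels of 4 gene lists, the stromal markers and Mlxipl in CPM (log axis) by rank of the Malat1 plus Neat1 share, with exact 95% Poisson intervals. The first 4 bands are the members. The splicing list falls from 10852 to 1513 CPM across the bands, and stromal markers are highest between ranks 51 and 500.

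Genes past 2-fold higher than the low-mt barcodes had longer annotated transcripts than the genes read. Their longest transcript had a median of 4333 bases and 10 exons, against 2847 bases and 7 exons for all 2325, and their genomic span had a median of 30763 bases against 19572. A run of 10 or more A was found in the longest transcript of 36.2% of the higher genes (31.1% to 41.5%) and of 19.4% of all genes read. Level bears on this, since 314 of the 351 higher genes had a mean level under 200 CPM. Among genes under that level the medians were 4443.5 bases and 10 exons for the higher and 3150 bases and 8 exons for all read. Such a run was found in 36.6% and 21.8% of them. A transcript with a retained intron was annotated for 69.2% of the higher and 61.4% of all genes, and 11 of the 17 noncoding genes read were among the higher. Of the higher genes 65.2% overlapped another annotated gene, beside 52.0% of all genes read, so values of the overlapping genes are uncertain. Against the high-mt barcodes the higher genes had a median of 3418 bases and the 119 lower genes 2096 bases, beside 2918 bases for all genes read, and a run of 10 A was found in 28.9% and 9.24% of them. Longer transcripts have more places for such runs, so both values are not independent.

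The PHx48h library gave a second mouse, whose values played no part in choosing the members. Only 7 of its 821 barcodes at most 30% mt reached the share of the lowest member, and each had 5218 to 8028 UMIs, 480 to 875 of them from Malat1. Neat1 gave 15 to 37 UMIs in 6 of the 7 and 0 in the other, which held stromal markers, as did 1 of the 6. With 38453 UMIs in all, 1 UMI was 26.01 CPM, so single genes are coarse here. Against barcodes under 2% mt, 1094 of 2926 genes read (37.4%) were higher and 310 (10.6%) lower, and against barcodes over 30% mt 1011 of 3151 (32.1%) were higher and 277 (8.79%) lower. Splicing genes were higher for 28 of 30 and for 26 of 30, with median log2 ratios of 2.81 and 1.73 beside 0.44 and 0.45 for all genes read. A few UMIs in the 7 barcodes can carry a gene that is low in the reference past the 50 CPM mean. The counts of higher genes can thus be partly set by the filter.

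Single genes could be followed from one library to the other. In the 7 barcodes Luc7l2 had 55 UMIs, Kcnq1ot1 26, Pnisr 18 and Mlxipl 18, with log2 ratios of 4.95, 5.08, 4.75 and 4.09 to the low-mt barcodes of the same library, while Nlrp6 had 0 UMIs and Onecut1 had 1. Alb was at 21819 CPM against 22193 CPM, and Apoa1 had a log2 ratio of -0.17. Of the 351 genes higher than in the low-mt barcodes at 0 h, 273 were among the 1852 read in both libraries. Of these 273, 232 (85.0%) were past 2-fold higher at 48 h, as were 267 of the other 1579 (16.9%). The rest of the 351 were not read at 48 h. A gene low in the low-mt barcodes passes that filter only through the 7 barcodes. Genes that did not repeat could thus drop out, and 85.0% is not a share of all 351. Across the 1852 genes Pearson's r of the log2 ratios was 0.69 and Spearman's rho 0.55, given as a description since genes share the same libraries and counts. Against the high-mt barcodes the shares were 42.6% of 465, out of 547 higher at 0 h, and 10.8% of 1505. Ribosomal protein genes had a median of -0.85 to low-mt barcodes at 48 h and -0.21 at 0 h, but the 48 h value was -0.28 with the 20 highest barcodes in place of 7, and the difference between the mice was not tested.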

How the data were processed

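Droplet single-cell RNA-Seq was analysed for 2 libraries, 1 per group, each grouped by the time point in its labels. Per the labels, reads were processed by Cell Ranger and the build was mm10 (version and counting options not given in the sources used here). The authors deposited counts, whole UMI numbers per gene and barcode for 27998 genes without normalization. Whether strand was used is not stated there, so overlapping genes are uncertain, as are near-identical copies. The study filtered cells on mitochondrial content and doublets without thresholds and kept far fewer cells than the deposited barcodes. No doublet caller was run here.

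Members and gene lists were chosen with earlier results of these data known. A level was the summed count scaled to 1000000 UMIs (CPM) without the 13 mt genes, Malat1 and Neat1. Folds are ratios of these levels, and log2 ratios had 10 CPM added. Genes with a mean level of at least 50 CPM were read and 2-fold was the call. Named genes were the 12 highest and 12 lowest of each comparison, the 2 highest and 2 lowest of each of 17 lists against low-mt barcodes, and 17 fixed genes, of which 1 is not reported here, and marker genes and counts of 5 or fewer members were named after their values were seen. Intervals were exact (Poisson, its conditional ratio, or Clopper-Pearson). Shares of barcodes were also taken after thinning each barcode to a fixed UMI number. Gene coordinates and transcripts came from GENCODE M21 (GRCm38), matched by identifier for 27722 of 27998 genes. The comparison was tested on simulated data with known folds. Python 3.11.15, numpy 2.4.6, scipy 1.17.1 and pandas 2.3.3 were used.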

Additional observations from a re-analysis of the deposited data

How the results depend on the processing

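No paired analysis was possible because each group had 1 library. Over 252 results, 5062 values were recomputed, and no alternative was left out. Of the values that answer a comparison 75 moved by more than their 95% interval, or by over 1.5 times for counts of genes, and the others did not. Of the values for single genes and other lists 4171 stayed within their interval, 610 left it, and 5 were called before and changed sign. Genes higher than low-mt barcodes numbered 351 and changed to about 1.0e+03, 116 and 1739 with a minimum level of 20 CPM, 100 CPM and none, to 707 with the 11 members of 2% to 30% mt, and to 122 (of 1117 read) with genes that overlap no other, an alternative chosen after seeing the data. The 5 lower genes became 21 or 22 with all non-mt or all UMIs as the total, 9 after centring, 40 without the 20 most abundant genes, 8 and 0 with 5 and 20 CPM added, 21, 1 and 104 with the 3 minimum levels, 36 and 0 with the top 50 and 200 barcodes, 16 without other classes (16 also with the reference so filtered), 3 and 191 with members under and over 2% mt, 8 without the 10 deepest, 11 with deeper reference barcodes and 2 without overlaps. Against high-mt barcodes the 547 higher genes became 338, 936 and 175 under those 3 totals, 1143, 252 and 1623 under the minimum levels, 878 with the 11 members and 233 without overlaps, and the 119 lower genes became 21 (all UMIs), 283 (centred), 210 (20 genes left out), 232 (no minimum) and 70 (no overlaps).

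List medians moved as follows. Splicing genes against high-mt barcodes were at 1.70 with all UMIs and 0.66 centred. Secreted proteins against low-mt barcodes were at -0.43, -0.45, -0.31 and -0.40 under the 4 scalings (non-mt, all, centred, 20 genes left out), -0.32 with the top 50 and -0.058 with the 11 members, and against high-mt barcodes at -0.10 (all UMIs) and -1.24 (centred). Ribosomal protein genes against low-mt barcodes were at -0.40, -0.41 and -0.36 (non-mt, all, 20 genes left out), -0.045 with the top 200, -0.29 without other classes, -0.66 with the 11 members and -0.34 with deeper reference barcodes, and against high-mt barcodes at 1.04, 1.83, 0.74 and 1.03 under the 4 scalings, 1.29 (mean per barcode), 1.36 (top 200), 0.87 (11 members) and 1.38 (reference over 50% mt). Hepatocyte transcription factors against high-mt barcodes were at 1.16 with the 11 members. With those 11, 5 values changed sign, namely Ccl5 (-0.51 against low-mt and -0.049 against high-mt barcodes), Tmsb4x against low-mt barcodes (-0.29), Rplp1 against high-mt barcodes (-0.10) and mitochondrial enzymes against low-mt barcodes (0.037). The share of members with another class was 6.0% in the top 50, 39.5% in the top 200 and 9.09% among the 11, and the stromal share 4.0% in the top 50 and 9.09% among the 11. In the PHx48h library the 20 highest barcodes, chosen after seeing the data and 10 of them with another class, gave 640 higher and 77 lower genes against low-mt and 579 higher against high-mt barcodes, with medians of 1.23 for splicing genes (high-mt), -0.40 and -1.20 for secreted proteins and -0.28 and 0.81 for ribosomal proteins. The cause of these shifts was not tested, beyond the smaller number of barcodes or genes that some settings leave. At 210247 UMIs over the members, 1 UMI was 4.76 CPM, which limits every gene near 50 CPM.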

Other observations

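No hypothesis was tested. Values outside the comparisons concern barcodes that passed neither the rank nor a reference. The 2734 other barcodes with 2% to 30% mt had a median Malat1 plus Neat1 share of 0.192% and up to 8.02%, and 18.6% of them held markers of a class other than hepatocytes. Among barcodes over 30% mt, which the ranking left out, 1 of 3870 had a share of at least 5% and none reached 10%.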
